A study of Mus musculus with 96 samples.

Results

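The genes described here are 561 of the 22422 genes with a coding transcript, chosen by wild-type ribosome footprints: the 5' untranslated region (5' UTR) held at least 200 footprints over the 3 wild-type pools, and at least as many as the counted part of the coding sequence. Genes named as replication-dependent histones were left out, and 27 of those met both thresholds. A further 7935 genes had 200 or more wild-type 5' UTR footprints but fewer than in the coding part, and they serve below as the other genes. The wild-type footprint counts that chose the members are given as a description and carry no test.

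The study compared neural tubes dissected from mouse embryos at E11.5. One genotype was wild type, labelled C3HeB, and the other was heterozygous for the Xs-J allele of Eif3c, labelled C3HeB/Eif3cXs-J/+ and called mutant below. Eif3c encodes a subunit of eukaryotic initiation factor 3. Each genotype had 3 pools, numbered 1 to 3, and per the labels' protocols a pool used the neural tubes of 1 litter. Pools of the same number carry the same pool label in both genotypes. Papain-dissociated cells of a pool were split for ribosome profiling, which sequences the 28 to 31 nt of RNA that a ribosome protects, and for sequencing of poly(A) RNA fragments of 30 to 50 nt. That gave 12 libraries.

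Most eukaryotic ribosomes load near the 5' cap and scan the 5' UTR until they meet a start codon in a favourable sequence. A start codon inside the 5' UTR opens an upstream reading frame, and translation of such a frame commonly lowers translation of the main frame behind it. Some upstream frames, as in Atf4, are used to raise synthesis of a stress protein when initiation is limited. A footprint on a start codon begins about 12 nt before it, so a short window around a start codon is also what an initiating ribosome covers.

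The starts of the longest ATG-initiated frame in the 5' UTR are shown for 9 members, because the ratio of 5' UTR to coding footprints was high in them or because upstream translation is textbook knowledge for the gene. Each window is 30 bases from the GENCODE vM21 transcript, 5′ to 3′, with the start codon of the upstream frame in capitals.

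Atf4: ccggcctaagccATGgcgctcttcacgaaa
Atf5: cttttcgccgccATGgagtcctccaccttc
Ddit3: gtcgattatatcATGttgaagatgagcggg
Ppp1r15a: gccgcgtggacgATGttggcgcagattgag
Ifrd1: ctagagagaaacATGtatcgtttccgctcg
Eif5: agatcgacgtgcATGcgagccaatgacaag
Mkks: tgtcaacagactATGagctttcagaatctc
Nrarp: gggcgcggctggATGcagcaggggtcccgc
Ptp4a2: cgccggccttcaATGcccagtccccagctt

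The Atf4 window spans an exon junction, at chr15:80255669-80255685 and chr15:80256207-80256219 of mm10 (GRCm38) on the plus strand. Its frame ran for 59 codons and ended 83 nt past the main start. The Atf5 window also crosses a junction (chr7:44815270-44815282 and chr7:44816402-44816418, minus strand), and its frame of 58 codons ended 56 nt past the main start. The other 7 frames stopped inside the 5' UTR. They had 34 codons in Ddit3 (chr10:127290817-127290846, plus strand), 45 in Ppp1r15a (chr7:45526217-45526246, minus strand) and 52 in Ifrd1 (chr12:40223141-40223170, minus strand). The frame of Eif5 had 108 codons (chr12:111538087-111538116, plus strand), and that of Mkks had 59 (chr2:136885662-136885691, minus strand). Nrarp had a frame of 54 codons (chr2:25180897-25180926, plus strand) and Ptp4a2 one of 39 (chr4:129820566-129820595, plus strand). Of these 9 start codons, those of Atf4 and Atf5 stand in the sequence ANNATGG or GNNATGG, the favourable context for initiation.

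A second set of windows shows the main start codon of 4 members, in capitals, because most of their 5' UTR footprints lay across that codon.

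Rps25: ctgagcttcgccATGcctcccaaagacgac
Rplp1: gcagtctacagcATGgcttccgtctccgag
Selenow: cgacgtgcagctATGgcgctcgccgttcga
H2afx: acctcgtacactATGtccggacgcggcaag

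The Rps25 window is at chr9:44407743-44407757 and chr9:44407988-44408002 on the plus strand, split by an intron. Rplp1 is at chr9:61914411-61914440 on the minus strand, Selenow at chr7:15922263-15922292 on the minus strand and H2afx at chr9:44334750-44334779 on the plus strand.

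The members' ratios of 5' UTR to coding footprints in wild type had a median of 1.60 over the 535 with a coding footprint, and 26 members had none. The ratio was below 1.5 in 242 members, at least 2 in 214 and at least 10 in 61. Just inside the ratio threshold were Zfp821 (4585 5' UTR and 4579 coding footprints), Rab5a (7748 and 7724) and Ccdc30 (595 and 593). Just outside it were Josd2 (841 and 842), Gpbp1 (7995 and 8013) and Elk4 (1239 and 1244). At the count threshold, Gpr45 and Hacd1 had 200 5' UTR footprints each and Nat8f4 had 205, while Vgll3 with 195, and Cdc42ep5 and Rpl39 with 189 each, fell short. The ratio ran without a gap through the threshold.

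**Figure D1:**
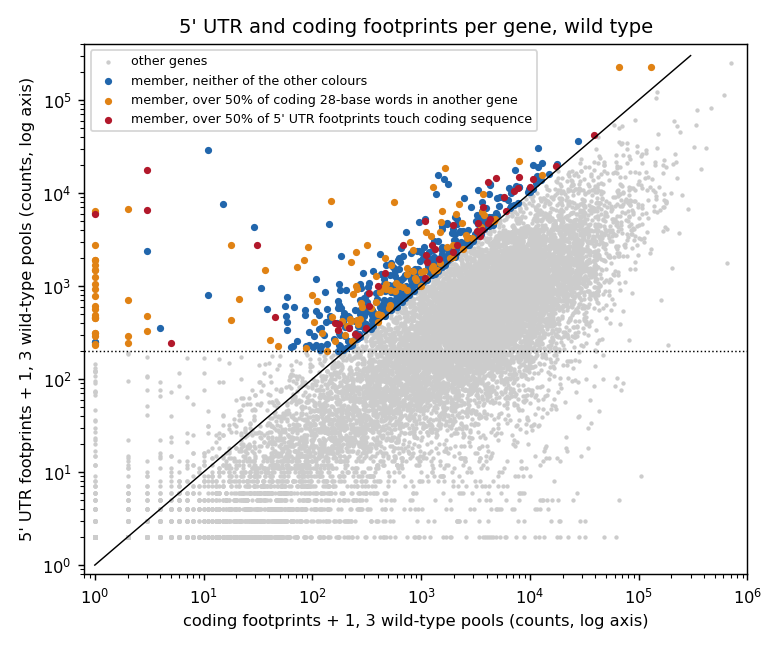
Wild-type footprints in the 5' UTR (vertical) against the counted coding part (horizontal), both as counts + 1 summed over 3 pools on log axes, with 1 point per gene that had a 5' UTR footprint. Members are red where over 50% of 5' UTR footprints touch the coding sequence, otherwise orange where over 50% of coding words occur in another gene, and blue for the rest. Non-members other than histones are grey. The solid line marks equal counts and the dotted line the minimum of 200; the 561 members lie on or above both, and the 26 members with no coding footprint stand at the left edge.

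Per length the picture differed, since the members' 5' UTRs (median 353 nt) were shorter than their counted coding parts (median 582 nt). Footprints per nt were higher in the 5' UTR than in the coding part in 494 members, lower in 41 and without a coding footprint in 26, with a median per-length ratio of 2.90. Among the other genes, 59.8% had at least as many footprints per nt in the 5' UTR, with a median of 1.17. The 5' UTR counts include reads across the main start codon, and the coding part leaves out its first 15 codons. On the reading given below, such reads made up over 50% of 5' UTR footprints in 28.9% of the other genes and 8.20% of members. Members with a higher count but a lower density had a 5' UTR longer than the coding part, as did Ptms, which encodes parathymosin (342 against 246 nt, per-length ratio 0.958), and Gng2, a G protein gamma subunit (362 against 156 nt, 0.465). Short coding parts were common: 22.8% of members had 100 counted codons or fewer, against 2.92% of the other genes.

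The counting of reads differed between the parts of a transcript. How a read was assigned to a part is not given in the sources used here. Wild-type footprints in the 5' UTR, whole coding sequence and 3' UTR summed to more than the count of the whole transcript in 519 members and to less in none of all genes (0), which is taken here as reads touching 2 parts being counted in both. The values of this paragraph rest on that reading. The counted coding part leaves out the first 15 and last 5 codons, so a footprint on the main start codon would add to the 5' UTR count and not to the coding count. Counts of the whole transcript and of its parts give the share of such reads between a lower and an upper bound. They made up over 50% of the 5' UTR footprints, at the lower bound, in 46 members (8.20%) and in 2290 of the other genes (28.9%). Rps25, a small-subunit ribosomal protein, had 17572 wild-type footprints in its 5' UTR and 2 in the counted coding part, and 98.2% of the 5' UTR footprints touched the coding sequence at its start window shown above. The share was 99.8% in Rplp1, an acidic stalk protein of the large subunit, 99.0% in Rps19, 90.2% in Selenow, a selenoprotein, and 69.8% in H2afx, the histone variant H2A.X. Without reads touching the coding sequence, the 5' UTR still held at least as many footprints as the coding part in 442 to 469 of the 561 members, depending on the bound.

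Coding sequence shared with other genes was measured next, since nothing in the labels says what was done with a read that matched more than 1 gene. Words of 28 bases, the shortest footprint, were compared with the transcripts of all other genes for the 530 members whose sequence matched. Over 50% of the words of the counted coding part also occurred in another gene in 162 members (30.6%), against 5.72% of the other genes. Eif1, which encodes the initiation factor that guards start codon choice, had 5997 wild-type footprints in its 5' UTR and 0 in its coding part, and every coding word occurred elsewhere. Eif1, Rpl27 (6365 and 0), Usmg5 (6061 and 0), Btf3l4 (2728 and 0) and Mfap1a (1900 and 0) had the most 5' UTR footprints among the 26 members without a coding footprint, and in all of these but Usmg5, whose sequence did not match, 100% of coding words were shared. Ptma, which encodes prothymosin alpha, had 28648 and 10 with 29.9% of coding words shared. Cytosolic ribosomal proteins, a family counted after the values were seen, supplied 19 members of the 39 such genes with 200 or more 5' UTR footprints.

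Annotated coding exons of another gene lay in the 5' UTR of 13 of 531 members with matching exons (0.436% of the other genes). Predicted genes apart, those of most footprints were Snrpn, whose 5' UTR contains the upstream protein gene Snurf (9647 wild-type 5' UTR and 3738 coding footprints), Nme2 (7002 and 3695), which overlaps Gm20390, Ggnbp1 (4267 and 28), which overlaps Zbtb9, and Taf9 (3574 and 2607), which overlaps Ak6. A coding exon of another transcript of the same gene lay there in 18 members (3.39%, against 2.40% of the other genes), and those of most footprints were Pnrc2, a nuclear receptor coactivator (12385 and 1780), Polr2m (8492 and 6226), Hmgb3 (8189 and 148) and Ggnbp1. Exons of another gene overlapped on the same strand in 47 members (8.85%, against 3.39%) and on the other strand in 80 (15.1% against 11.2%). The strand used for counting is not given in the sources used here, so reads of such pairs cannot be told apart. Tuba1a, the neuronal alpha tubulin with the most 5' UTR footprints (227094), and the predicted gene Gm49450 (225873) overlap there and share most of these reads, as do Rnf26 and Gm49380. Akr1a1, an aldehyde reductase, was also among the 10 members with most 5' UTR footprints (21005, against 12935 in the coding part).

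These groups overlapped: 193 members fell in at least 1 of the 4 (start codon reads, shared coding words, and coding exons of another gene or of the same gene), 341 in none and 27 could not be placed because no sequence matched. Of the 341, 287 had an ATG in the 5' UTR and 54 did not. The 341 were not free of counting limits: 5 had under 20 wild-type coding footprints, Ptma among them. Overlap with exons of another gene that are not coding was not among the 4 groups. The groups and their 50% limits were set after the values were seen.

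Upstream ATG codons were more common in the members than in the other genes. The 5' UTR held an ATG in 395 of 530 members (74.5%) and in 54.3% of the other genes. The longest ATG frame reached 20 codons in 56.6% against 31.0%, and 60 codons in 19.2% against 8.90%. A frame ran past the main start in 29.2% against 16.9%. The shares past the main start include frames in frame with it, which the frame lengths leave out. Members' 5' UTRs were also longer (median 353 against 202 nt) and slightly poorer in G and C (median 62.4% against 65.8%). Within 5' UTRs of 200 to 399 nt, an ATG was present in 75.3% of 170 members and 68.8% of 2545 other genes, and a frame of 20 codons in 55.3% and 37.8%. From 400 nt, the shares with a frame of 20 codons were 78.5% of 228 members and 64.2% of 1319 other genes. Below 200 nt they were 20.5% of 132 and 14.6% of 3707. These shares are descriptions, with no test.

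The context of the upstream ATG codons differed little. Of 1654 upstream ATG codons in the members, 18.1% stood in ANNATGG or GNNATGG on the transcript strand, against 17.2% of 10948 in the other genes. The main start codon stood in that context in 40.2% of members and 46.1% of the other genes. Of the 135 members with no upstream ATG, 88.1% had a CTG frame of 20 or more codons, against 81.5% of 3462 other genes. The 5' UTRs of the latter were shorter (median 132 against 165 nt). Unlike the ATG frame lengths above, these CTG frames include any in frame with the main start, which run on through the coding sequence.

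**Figure D2:**
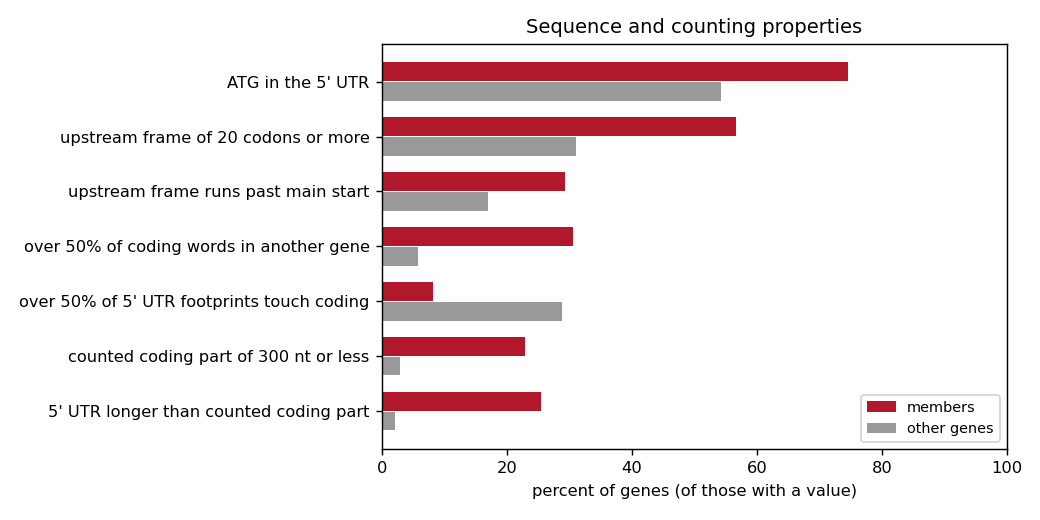
Percent of genes with each sequence or counting property, as bars starting at 0, for the members (red) and the other genes with 200 or more wild-type 5' UTR footprints (grey). Upstream ATG frames and shared coding words were more frequent in members, and reads touching the start of the coding sequence less frequent (8.20% against 28.9%).

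Counts of the mutant libraries and of the RNA libraries were not part of either threshold that chose the members. They did add to the coding counts, summed over all libraries, that picked the transcript of each gene. Counts in the 5' UTR were at least equal to coding counts in 529, 472 and 523 members in mutant footprint pools 1, 2 and 3. In every mutant pool this held in 456. The choice of members summed the wild-type pools, and equality held in 542, 501 and 538 members in wild-type pools 1, 2 and 3. In every wild-type pool it held in 475. In 13 members no mutant pool reached equality, among them H2afx, Hoxb6, Mrfap1, Uqcr11 and Trim71. In the RNA, 361 members had fewer 5' UTR than coding reads in every library, while 142 had a wild-type RNA ratio of at least 1 (25.3%, against 0.151% of the other genes). Of the 162 members with shared coding words, 72 were among those 142. The footprint ratio exceeded the RNA ratio of the same pool in all 3 mutant pools in 522 members. A pool with no coding footprint was counted as exceeding if it had coding RNA. Median ratios over the summed mutant pools were 1.75 in footprints and 0.579 in RNA for members, and 0.189 and 0.0859 for the other genes. The median of the other genes was thus also higher in footprints.

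Whole-library values bear on the tests that follow. Footprint libraries held 11.3M to 59.2M coding counts, and RNA libraries 7.20M to 13.1M; in mutant footprint pool 1, 4 incomplete lanes of the first run were left out. The 5' UTR took 13.5 to 13.6% of transcript counts in the 3 wild-type footprint pools and 16.2%, 13.6% and 15.7% in mutant pools 1, 2 and 3, so mutant pool 2 lay with the wild type. Eif3c RNA was 473 to 517 CPM (coding counts scaled to a common library total) in wild type and 290 to 301 in the mutant. Markers of neural progenitors (9 of 9), neurons (8 of 8) and erythroid cells (9 of 9) all had 10 or more counts in every RNA library, and none was at 0. Their summed RNA levels were 3940 to 4212 CPM in wild type and 3660 to 4272 in the mutant for progenitors, 4041 to 4160 and 3242 to 3838 for neurons, and 2697 to 3333 and 2806 to 6363 for erythroid cells. The erythroid value of 6363 was that of mutant RNA pool 1 alone, with mutant pools 2 and 3 at 3362 and 2806. Endothelial markers were also highest in mutant RNA pool 1 (417 CPM, against 243 to 293 in the other libraries).

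Within the mutant libraries, the 5' UTR to coding ratio was compared between footprints and RNA of the same pools. The main fit held no term for the pool, so its SE and p do not use that pairing. The ratio of each gene was the quantity tested. It was higher in footprints in 487 of the 528 members tested and lower in 1, where 81.0% of all 10192 genes tested were called higher and 2.13% lower (edgeR quasi-likelihood test, adjusted p below 0.05). The median log2 change was 1.71 in members and 1.15 over all genes; with members under 3 mutant coding footprints set at that floor, it remained 1.71. A further 33 members were not tested for want of counts. The choice of members required a high ratio in wild-type footprints, and the mutant footprint ratio is the same measure in other libraries. The excess over all genes is therefore a description and not separate evidence.

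The smallest p among members was that of Atf4, the transcription factor of the integrated stress response. It had ratios of 8.00, 5.43 and 6.79 in mutant footprints and 0.287, 0.273 and 0.281 in mutant RNA. In wild-type footprints it had 6.83, 6.71 and 7.87, and in wild-type RNA 0.263, 0.293 and 0.266. All 6 footprint libraries lay far above all 6 RNA libraries, and the genotypes overlapped in both. In the mutant, the ratio was higher in footprints by 4.56 ± 0.18 on the log2 scale (SE, adjusted p = 3.1e-10, n = 3 pools per assay).

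Of 40 genes listed as textbook cases of upstream frames, chosen with earlier results of these data known, 13 were members. Of the other 27, Amd1 had no coding footprint and 26 had wild-type ratios of 0.000113 to 0.987, with a median of 0.221, and 6 of the 27 had under 200 5' UTR footprints. Atf5, a relative of Atf4, had mutant footprint ratios of 3.97, 2.92 and 6.06 against 0.329, 0.282 and 0.384 in RNA. Ppp1r15a, the stress-induced regulatory subunit that directs dephosphorylation of eIF2 alpha, had 4.44, 2.05 and 3.81 against 0.161, 0.179 and 0.122. Ddit3, the stress transcription factor CHOP, had 3.25, 2.67 and 3.33 against 0.433, 0.418 and 0.398. In each of these genes the 3 footprint libraries lay above the 3 RNA libraries, with log2 differences of 3.64 ± 0.26, 4.38 ± 0.28 and 2.88 ± 0.24 (SE).

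Ratios varied among the other listed members. Eif5, the GTPase-activating factor of initiation, had 1.69, 1.40 and 1.11 in mutant footprints and 0.366, 0.370 and 0.372 in RNA, and Azin1, the antizyme inhibitor of polyamine control, had 1.83, 1.25 and 1.23 against 0.387, 0.374 and 0.373. The footprint libraries lay above the RNA libraries in both, by 1.90 ± 0.16 in Eif5 and 1.90 ± 0.18 in Azin1 (log2, SE). Ifrd1 had 1.50, 0.831 and 1.01 against 0.173, 0.143 and 0.170, so that pool 2 fell below equality. Mkks, a chaperonin-like gene whose 5' UTR overlaps coding exons annotated to 2 other genes, had 4.43, 8.75 and 6.06 against 1.19, 1.23 and 1.06. Ucp2, a mitochondrial carrier, had 5.21, 3.75 and 3.92 against 0.399, 0.489 and 0.461. Asnsd1 had 1.78, 1.04 and 1.39 against 0.201, 0.212 and 0.238, and 89.0% of its coding words occurred in another gene.

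Slc35a4, a solute carrier with an annotated upstream protein, had 8.36, 3.93 and 6.52 in mutant footprints and 0.761, 0.898 and 1.03 in RNA. Bcl2, the inhibitor of apoptosis, did not pass the test: its mutant ratio was 1.59, 2.37 and 1.77 in footprints and 2.38, 2.31 and 1.90 in RNA (log2 difference −0.23 ± 0.24, SE, adjusted p = 0.36). Eif1, with no coding footprint, had 5' UTR to coding RNA ratios of 4.41, 5.58 and 5.00 in the mutant.

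Members outside that list with the smallest p in the same test were Selenow (mutant footprints 3.36, 3.45 and 3.17, RNA 0.265, 0.214 and 0.227), Ciao2a of cytosolic iron-sulphur assembly (3.89, 3.70 and 3.36 against 0.237, 0.247 and 0.299), Polr2m (2.56, 1.38 and 1.68 against 0.109, 0.0878 and 0.107) and Rps25. Most wild-type 5' UTR footprints of Selenow touched the coding sequence, as given above. The log2 differences were 3.82 ± 0.17 in Selenow, 3.80 ± 0.19 in Ciao2a and 4.16 ± 0.21 in Polr2m (SE). That of Rps25 rested on few coding footprints and was 0.03 when the whole coding sequence, which holds the start codon reads, took the place of the counted part. The 1 member with a lower ratio in footprints was A730046J19Rik, a predicted gene on chromosome X (1.59, 2.07 and 2.06 in footprints, 3.67, 4.89 and 8.40 in RNA, log2 difference −1.40 ± 0.37, SE).

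**Figure D3:**
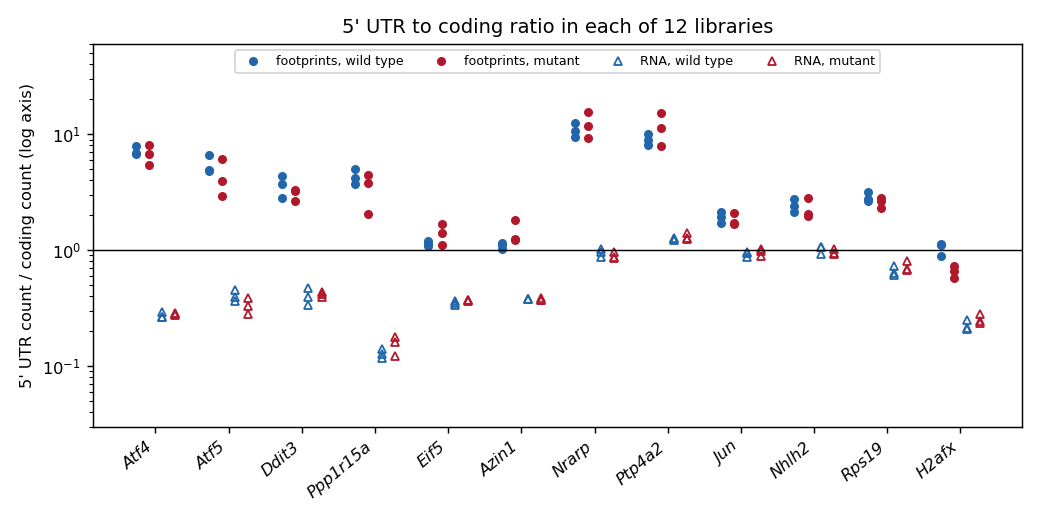
Ratio of 5' UTR to coding counts (log axis) in each of 12 libraries for 12 members; filled circles are footprints, open triangles RNA, blue wild type and red mutant, 3 pools each, and the line marks equality. Footprint values of Atf4 lie between 5.43 and 8.00 and its RNA values between 0.263 and 0.293, while the circles of H2afx straddle the line.

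Nrarp, a short feedback inhibitor of Notch signalling, and Ptp4a2, a phosphatase, were named after their values were seen. The Nrarp ratio was 10.7, 9.45 and 12.6 in the 3 wild-type pools and 15.6, 9.26 and 11.8 in the 3 mutant pools, and 0.850 to 1.02 over the 6 RNA libraries. Ptp4a2 had 8.98, 10.1 and 8.15, then 15.2, 7.84 and 11.4, and 1.22 to 1.40 in RNA. In both the genotypes overlapped and every footprint library was above every RNA library.

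Coding footprints for the coding RNA were compared in the same mutant libraries, also without a pool term. The level is relative to the average gene. Coding footprints were lower in 336 and higher in 56 of the 528 members tested, with 32.9% of all 13491 genes tested called lower and 32.6% higher. The median log2 value was −0.87 in members and 0.03 over all genes, and −0.87 with members under 3 coding footprints set at that floor. The choice of members required a coding count no greater than the 5' UTR count in wild type, and the coding footprints here are the same measure in other libraries.

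**Figure D4:**
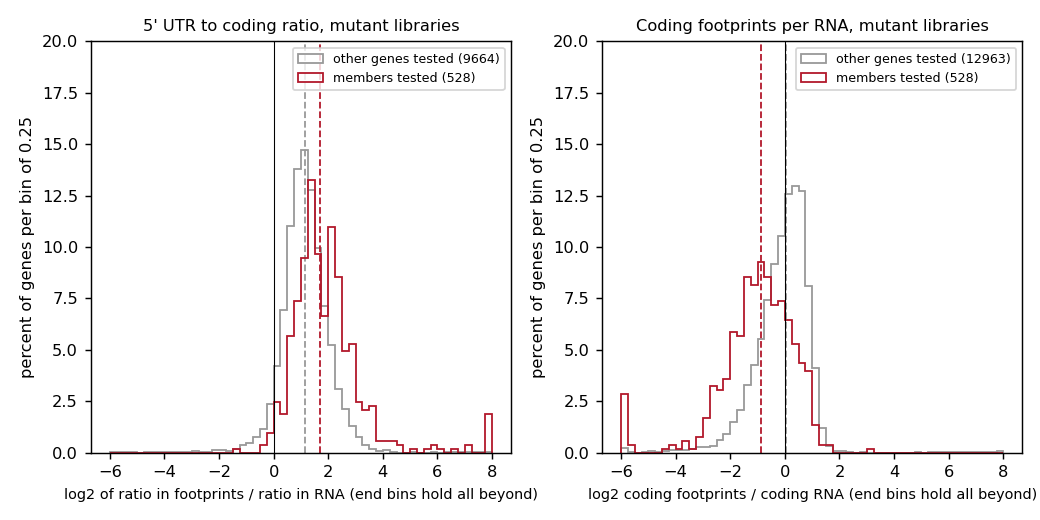
Distributions over genes in the mutant libraries, as percent of genes per bin of 0.25, of the log2 difference in 5' UTR to coding ratio between footprints and RNA (left) and of log2 coding footprints per coding RNA (right). Red is the 528 members tested and grey the other genes tested; dashed lines are medians, and the end bins hold all values beyond the axis.

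Atf4 stood at the low end. Its coding footprints were below its coding RNA by −4.24 ± 0.12 on the log2 scale (SE, adjusted p = 8.3e-09, edgeR). The other members of smallest p with low values were BC005537 (−4.30 ± 0.19), Zdhhc4, a palmitoyltransferase (−3.29 ± 0.15), Ptp4a2 (−2.68 ± 0.11) and Cdk16, a cyclin-dependent kinase (−2.53 ± 0.09). Not all members were low: H2afx had 3.03 ± 0.13, Gng2 0.96 ± 0.09 and Rhoa, a small GTPase, 0.94 ± 0.09 (log2, SE). These were among the 5 of smallest p in the members with higher values. The RNA was poly(A) RNA, so RNA without a poly(A) tail would not be counted, and whether H2afx had such RNA was not tested.

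Transcription factors were among the members; those of this paragraph other than Nhlh2 and Jun were named after their values were seen. Nhlh2, a helix-loop-helix factor of young neurons, had 30305 wild-type 5' UTR footprints, ratios of 2.75, 2.15 and 2.42 in the wild-type pools and 0.920 to 1.07 in RNA. Jun (19968 footprints) had 1.73, 1.93 and 2.15 and no upstream ATG, with 0.869 to 1.03 in RNA. Pou3f3 (19098) had 1.61, 1.53 and 1.62 with RNA at 0.741 to 0.853. Hes5, a Notch target repressor, had 14295 footprints and ratios of 1.28, 1.37 and 1.48, and 55.7% of its 5' UTR reads touched the coding sequence. Sox21 had 1.59, 1.58 and 1.58 in footprints but 1.15 to 1.55 in RNA, and its footprint to RNA difference in the mutant did not pass the test (log2 0.10 ± 0.18, SE, adjusted p = 0.59).

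Gene families were counted in the members and in all genes with 200 or more 5' UTR footprints. Zinc finger genes were 16 members (2.85%, against 3.08%), solute carriers 7 (1.25% against 1.62%) and genes of the mitochondrial ribosome and respiratory chain 13 (2.32% against 1.74%). The 5 translation factors (0.891% against 0.636%) were Eif5, Eif1, Eif1ad, Eif1a and Eif3j1. The name rule for homeobox genes matched 4 members (0.713% against 0.789%), which were Pou3f3, Hoxb6, Irx6 and, by its symbol only, Paxx. Predicted genes were 36 (6.42% against 2.12%).

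The comparisons of footprints between genotypes use the wild-type 5' UTR and coding counts that chose the members. The calls below are therefore a description for the members, from fits over all genes, and neither a difference nor a direction is read from them. The ratio was called higher in the mutant in 31 of 505 members tested and lower in 7, where 9.23% of 10793 genes were called higher and 0.334% lower. The median log2 difference was 0.09 in members and 0.22 over all genes, beside the 5' UTR shares of the mutant libraries given above, whose part in the result was not tested. A further 56 members were not tested. Without wild-type pools 1, 2 or 3 the members called were 0, 19 and 3, and without mutant pools 1, 2 or 3 they were 10, 107 and 6, so no member kept its call in every such fit; with 5' UTR reads that touched no coding sequence, 18 members were called.

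Among the members called higher was Glo1, the glyoxalase of methylglyoxal removal, with 1.22, 1.20 and 1.43 in wild type and 2.97, 3.35 and 2.15 in the mutant. The difference was 1.10 ± 0.18 on the log2 scale (SE). Ppdpf had 3.83, 3.60 and 3.84 against 7.67, 7.62 and 7.21 (0.99 ± 0.17, SE). In both, over 50% of coding words were shared with another gene. Set, a histone chaperone and phosphatase inhibitor, had 2.75, 2.72 and 2.92 against 5.02, 4.68 and 4.23, Ppp1r2, a phosphatase inhibitor, had 2.49, 2.43 and 2.67 against 6.04, 4.18 and 4.14, and Lyrm4, of iron-sulphur assembly, had 0.997, 1.24 and 1.05 against 2.27, 1.67 and 1.87. In Glo1, 96.5% of 5' UTR footprints touched the coding sequence, and with the whole coding sequence the difference was 0.35 and no longer called. With only 5' UTR reads that touched no coding sequence, the Glo1 difference was 1.08 and still called.

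Among those called lower were Mrfap1 (1.31, 0.985 and 1.17 in wild type, 0.721, 0.699 and 0.583 in the mutant), H2afx (1.13, 0.889 and 1.11, then 0.730, 0.576 and 0.664), Uqcr11 of respiratory complex III (1.30, 0.950 and 0.886, then 0.553, 0.524 and 0.678), Hnrnpa3 (2.16, 1.84 and 2.53, then 1.50, 0.527 and 1.08), Trim71 and Hoxb6. The differences were −0.79 ± 0.16 in Mrfap1, −0.66 ± 0.15 in H2afx and −0.84 ± 0.19 in Uqcr11 (log2, SE). That of Hnrnpa3 was −1.03 ± 0.26, and with the whole coding sequence it was −0.37 and no longer called. Trim71, a regulator of developmental timing, had 1.45, 1.16 and 1.44 against 0.878, 0.625 and 0.948. Hoxb6, a patterning homeobox gene, had 1.02, 1.02 and 1.10 against 0.607, 0.769 and 0.785 (−0.55 ± 0.15, SE). Over the summed wild-type pools, which chose the members at a ratio of 1, the ratio was 1.21 in Mrfap1, 1.08 in H2afx, 1.10 in Uqcr11 and 1.05 in Hoxb6.

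**Figure D5:**
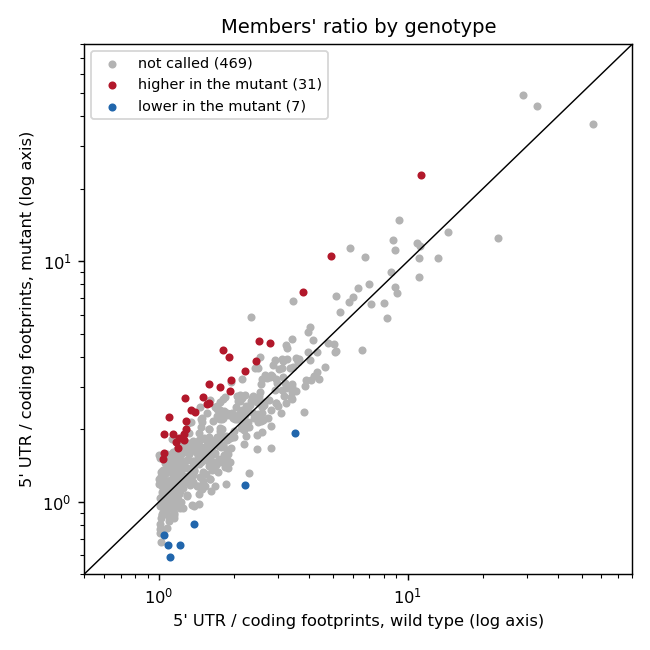
Ratio of 5' UTR to coding footprints summed over 3 pools, wild type (horizontal) against mutant (vertical), both log axes, for the 507 members with 20 or more coding footprints in each genotype. The line marks equality; 31 members called higher in the mutant are red, 7 called lower are blue, and the rest are grey.

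In the 5' UTR footprints themselves, which the choice of members also used, 82 of 561 members were called higher in the mutant and 4 lower, beside 13.1% and 0.723% of all 10925 genes tested. These counts were scaled by coding counts; scaled by 5' UTR counts, which moved the median of all genes from 0.23 to 0.01, they were 34 higher and 31 lower among members. The smallest p among higher members were those of Rps27a, a ubiquitin fusion of a ribosomal protein (1.02 ± 0.14), Tomm20, a mitochondrial import receptor (0.86 ± 0.13), Rnf26 with the overlapping Gm49380 (0.85 ± 0.13 and 0.91 ± 0.13) and Pclaf (0.86 ± 0.14). The 4 lower members were Tsga10 (−0.68 ± 0.16), Hoxb6 (−0.50 ± 0.14), Brd3os (−0.52 ± 0.15) and March4 (−0.50 ± 0.16, all log2 with SE). Without wild-type pools 1, 2 or 3 the members called were 14, 39 and 27, without mutant pools 1, 2 or 3 they were 45, 228 and 24, and with all lanes of mutant pool 1 they were 56.

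The choice of members limited wild-type coding footprints to no more than those of the 5' UTR. Of all 13434 genes tested, 30 had coding footprints called higher in the mutant and 4 lower (0.253% in either direction). No direction is read from the calls in members, which were 5 of 505, all higher. They were Trim71 (1.64 ± 0.21, log2 with SE), Uqcr11 (0.93 ± 0.11), Mrfap1 (0.83 ± 0.09), Nr2f6, an orphan nuclear receptor (0.79 ± 0.10), and Snrpf, a core protein of the spliceosome (0.79 ± 0.13). The ratio, the 5' UTR and the coding comparisons share all 6 libraries. Without wild-type pools 1, 2 or 3 the members called were 0, 3 and 0, without mutant pools 1, 2 or 3 they were 7, 68 and 3, and with all lanes 1; DESeq2 called 42, and 110 members had an unadjusted p below 0.05.

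Coding RNA differed in 3 of 533 members tested, beside 0.388% of 13406 genes in either direction. Ifrd1, a transcriptional coregulator, rose by 0.48 ± 0.06 and Rps20, a ribosomal protein, by 0.51 ± 0.08 (log2, SE, adjusted p = 0.036 each). Gng3, a neuronal G protein gamma subunit, fell by 0.44 on the log2 scale (SE 0.08). In bulk RNA, fewer cells of a type and less RNA per cell cannot be told apart, and the summed neuron markers were lower in all 3 mutant RNA libraries than in the wild type; their part in the result was not tested. Without wild-type pools 1, 2 or 3, or without mutant pool 3, no member was called by edgeR, and without mutant pools 1 and 2 the counts were 2 and 42; DESeq2 called 8, and 67 members had an unadjusted p below 0.05.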

How the data were processed

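Neural tubes of 2 genotypes were measured by ribosome profiling and poly(A) RNA-seq. Per the submitters' processing notes, cutadapt, STAR and bedtools were used with build mm10. Versions, counting strand and the handling of multiply mapping reads are not stated there. The authors deposited read counts per lane for each transcript and its parts. Lanes and runs were summed to 12 libraries, leaving out 4 incomplete lanes of mutant footprint pool 1. Transcripts were named by GENCODE vM21 (121271 of 122941 with version, 1522 without, 148 with no gene). Each gene symbol was represented by the transcript with most coding counts, summed over all lanes of both genotypes and both assays. The members and the lists were chosen with earlier results of these data known.

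Counts were tested in edgeR 4.0.16 (quasi-likelihood, TMM factors from coding counts, filterByExpr, Benjamini-Hochberg over all genes tested, adjusted p below 0.05), after checks on simulated data, with DESeq2 1.42.0 as an alternative. The ratio of 5' UTR to coding counts was an interaction with the library as a block. Named genes were the 10 members with most wild-type 5' UTR footprints, the 5 of highest ratio (no coding footprint, then most 5' UTR footprints), up to 5 per direction of smallest p in each test, the 3 on each side of both thresholds, listed upstream-frame genes, and up to 4 with overlapping coding exons; others are said to be chosen after their values were seen. Some genes that this rule names are not reported here. Mutant footprints and mutant RNA of 1 number come from the same cells, per the labels' protocols; deviations from the group mean correlated by 0.609, 0.604 and 0.373 in coding counts.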

Additional observations from a re-analysis of the deposited data

How the results depend on the processing

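Of 498 values of named members under alternatives, none changed direction, 408 kept their call and 90 lost it, 1 of these 90 being in the comparisons within the mutant. The cause was not tested. For the ratio between genotypes (1032 genes called), 585 genes were called with the replicate block, 612 with upstream reads only, an alternative chosen after seeing the data, and 47 to 3150 when 1 pool was left out (wild-type pool 1 and mutant pool 2). For 5' UTR footprints (1505) the counts were 908 with all lanes, 990 scaled by 5' UTR counts (604 higher, 386 lower), 1000 with upstream reads only and 189 to 4120. For coding footprints (34) they were 844 by DESeq2, 258 with no filter, 9 with all lanes and 8 to 2333. For coding RNA (52) they were 396 by DESeq2, 477 with no filter, 196 with the replicate block, 22 with the whole coding sequence and 1 to 1528. A ratio of at least 2 kept 214 members, and 561 became 433 with upstream reads only. Same-numbered wild-type and mutant pools carry the same pool label, and the labels do not say whether it marks shared litters. Correlations of their deviations ran from −0.16 to −0.02 in coding footprints. In coding RNA they were 0.150, 0.061 and 0.132, where every library correlated best with its own number (at most −0.012 between numbers). The main fits did not pair the genotypes, and whether such pools were related is not known. Pairing mutant footprints with RNA by the replicate block changed no count by over 1.5 times. Counts of 5' UTR reads, as few as 200 over 3 pools, limit the precision for single members, and arms of 2 pools were assumed to vary like the other arm.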
